A study of Mus musculus with 5 samples.

Results

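Thick ascending limb cells are the epithelial cells of the ascending part of the loop of Henle, and in these mouse kidney data they were chosen by their own transcripts. A droplet barcode counted as one when it carried at least 3 unique molecular identifiers (UMIs) of Slc12a1, the apical sodium-potassium-chloride cotransporter of this segment. It also had to carry at most 1 UMI of the distal cotransporter Slc12a3, at most 2 of the water channel Aqp2, none of the leukocyte gene Ptprc, at most 1 of the endothelial gene Egfl7, and fewer than 2 of the injury genes Havcr1 and Krt20 together. This rule found 605 cells among the 13823 barcodes that were kept (200 or more genes detected, mitochondrial UMIs no more than 50% of the total), which in turn came from 16876 deposited barcodes. Because the rule used measured values, the levels of those 7 genes are given below only as a description.

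Kidneys came from C57/BL6 mice aged 8 weeks. They were taken after sham surgery (day 0), 2 days or 7 days after unilateral ureteral obstruction (UUO), or 7 days after an obstruction had been reversed, which was experimental day 14. Each condition was 1 droplet library pooled from 3 mice, made from tissue digested on ice and sorted for live cells with DAPI. With 1 library per condition there was no replicate and no test between conditions: every interval below is an exact 95% interval that covers counting error only, and a difference between libraries cannot be told apart from a difference between conditions.

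The thick ascending limb reabsorbs salt without water. Slc12a1 brings in sodium, potassium and chloride, Kcnj1 (ROMK) returns potassium to the lumen, transporters on the blood side empty the cell, and claudins set which ions pass between the cells. The segment is also the main source of uromodulin (Umod), the most abundant protein of normal urine, and of urinary epidermal growth factor (Egf). Its transport work is driven by dense mitochondria, and hormones and the WNK kinases tune it.

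The members numbered 173 in sham, 194 at day 2, 86 at day 7 and 152 after reversal. Their median total was 3858 UMIs per cell in sham, 8471 at day 2, 8232.5 at day 7 and 5350 after reversal, so that a floor of 3 Slc12a1 UMIs asked for a higher relative level in the shallower sham cells. Levels are CPM, UMIs of a gene per 1e6 of the summed UMIs outside mitochondrially encoded genes. The label was checked on markers that the rule did not use. Umod stood at 23273, 16893, 12562 and 17366 CPM in members of sham, day 2, day 7 and reversed, against 126 to 231 CPM in leukocyte or endothelial barcodes of the same libraries. Ppp1r1a, a phosphatase inhibitor of the segment, stood at 2442, 1094, 794 and 1033 CPM, against 7.49 to 53.8 CPM. Slc12a1 itself stood at 8806, 2743, 2694 and 5982 CPM in that order. Just inside the threshold, with exactly 3 Slc12a1 UMIs, lay 6, 18, 5 and 4 cells, and just outside, with 2, lay 29, 18, 6 and 17. The latter had 2454, 10164, 5802 and 650.2 CPM of Umod.

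Mitochondrial share and the genes of other cell types also differed between the libraries. Mitochondrially encoded genes took 34.4% of member UMIs in sham, 21.4% at day 2, 10.3% at day 7 and 21.4% after reversal. The 8 leukocyte genes checked, with Ptprc at 0 by the rule, summed to 57.6, 533, 1763 and 829 CPM in members, between 0.0136 and 0.0999 of their level in leukocyte or endothelial barcodes. Proximal tubule genes (12) summed to 12883, 2701, 615 and 4885 CPM in members and to a similar 9175, 1702, 824 and 4225 CPM in the leukocyte or endothelial barcodes, which should lack them. They were uneven over cells: single members reached 90472, 66392, 1632 and 80000 CPM, against medians over cells of 8186, 1523, 582 and 2999 CPM. Of the 187, 48, 160 and 96 barcodes with the highest Scrublet doublet scores, 16, 1, 1 and 0 were members. Urothelial genes were at 0 in every library, and Col1a1, Col1a2, Col3a1, Dcn and Pdgfrb (fibroblast genes) were all at 0 in sham and summed to at most 84.2 CPM elsewhere. Between 16 and 39 barcodes were shared by any pair of libraries, none of them a member in both.

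**Figure D1:**
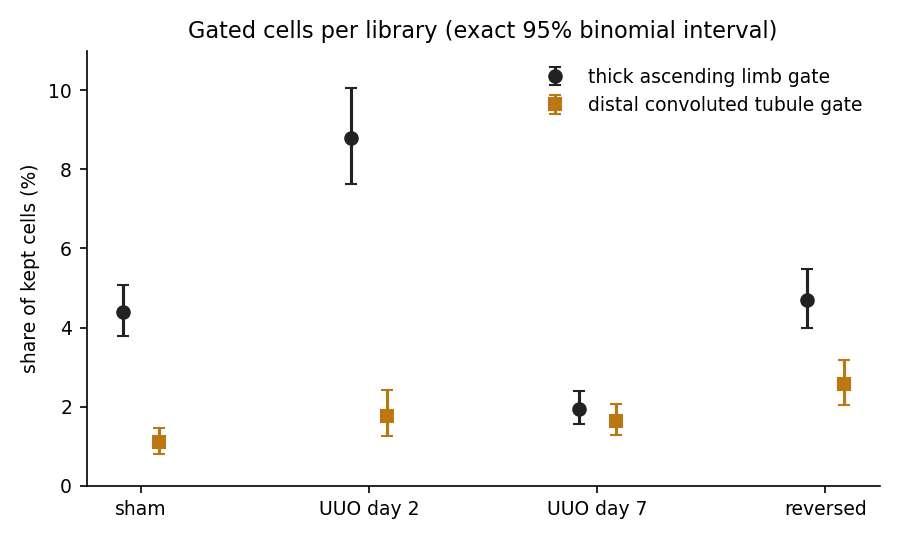
Share of kept cells that met the thick ascending limb rule (black circles) and a distal convoluted tubule rule (orange squares) in each library, in percent, with exact 95% binomial intervals. The thick limb share ran from 1.93% at day 7 to 8.79% at day 2, and the distal convoluted share from 1.09% to 2.56%.

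Members made up 4.40% of kept cells in sham (exact binomial interval 3.78 to 5.09), 8.79% at day 2 (7.64 to 10.0), 1.93% at day 7 (1.55 to 2.38) and 4.70% after reversal (3.99 to 5.48). The day 2 interval lay above the others, the day 7 interval lay below them, and those of sham and reversed overlapped. The size of these gaps moved with depth: when every barcode was reduced to 1000 UMIs and at least 1 Slc12a1 UMI was asked for, the shares were 7.67% in sham (6.79 to 8.61), 10.0% at day 2 (8.79 to 11.3), 2.77% at day 7 and 7.14% after reversal. Distal convoluted tubule barcodes, taken as at least 3 Slc12a3 UMIs with at most 2 of Slc12a1, followed another order: 1.09% in sham, 1.77% at day 2, 1.64% at day 7 and 2.56% after reversal. A share depends on every other cell in its library, and leukocyte or endothelial barcodes numbered 243, 685, 2876 and 1160 in the same order. At least 3 Slc12a1 UMIs were held by 181, 223, 133 and 188 kept barcodes, before the other conditions of the rule. Those conditions left 173, 194, 86 and 152 members, and the Ptprc condition took 5, 18, 29 and 24 barcodes. The part of these conditions in the shares was not tested.

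Genes were compared between libraries as the log2 ratio of CPM + 1, among genes with at least 30 UMIs over both libraries and at least 50 CPM in the higher one. A gene was called higher or lower when it differed by 2-fold or more on that scale. From sham to day 2, 180 of 3618 genes were higher (4.98%) and 403 were lower (11.1%). Between day 2 and day 7, 112 of 3294 were higher (3.4%) and 62 lower (1.88%). Reversed members had 161 of 3553 genes higher (4.53%) and 69 lower (1.94%) than day 7 members, and 247 of 3807 higher (6.49%) and 217 lower (5.7%) than sham members. Higher genes made up 30.9% of the calls at day 2 over sham, 64.4% at day 7 over day 2, 70.0% at reversed over day 7 and 53.2% at reversed over sham. This split moved with the scaling: on CPM of all UMIs, mitochondrial ones included, it was 60.2%, 86.0%, 39.2% and 82.5%, and with TMM factors 53.7%, 46.2%, 52.8% and 50.6%. The median gene lay at -0.19, 0.03, 0.09 and -0.06 in the main scaling, at 0.14, 0.24, -0.14 and 0.24 on all UMIs, and at 0.07, -0.09, -0.07 and -0.08 with TMM factors, so small differences are best read against these medians.

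Among the secreted products of the segment, Egf showed the largest decrease. It stood at 17123 CPM in sham, 811 at day 2, 778 at day 7 and 6673 after reversal. Day 2 was 21.1-fold below sham (log2 -4.40, interval -4.49 to -4.31), the levels at days 2 and 7 overlapped within counting error, and the reversed level was 8.57-fold above day 7 and 2.57-fold below sham. The last of these calls ended at 1000 UMIs per cell (log2 -0.97 in place of -1.36). Egf lies at chr3:129677565-129755316 on the minus strand (GRCm38, GENCODE vM21). Leukocyte or endothelial barcodes held 139, 8.69, 3.53 and 35.7 CPM of it, far below the members in each library.

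Umod varied less. Its levels were 23273, 16893, 12562 and 17366 CPM, and no step passed 2-fold; the step from sham to day 2 was -0.46 (-0.50 to -0.43) and that from day 7 to reversed 0.47 (0.43 to 0.51). With members limited to 20% mitochondrial UMIs, which left 16 sham cells, the former was 0.30. Wfdc15b, a whey acidic protein family member, had 5589, 1648, 881 and 2256 CPM: it was lower at day 2 (log2 -1.76, -1.85 to -1.68), higher after reversal than at day 7 (1.36) and still lower than in sham (-1.31). At no more than 20% mitochondrial UMIs the step from day 7 to reversed turned to -0.22. The antimicrobial peptide Defb1 went the other way at day 2, with 529, 1994, 1121 and 821 CPM (log2 1.91, 1.72 to 2.11). Wfdc2, another whey acidic protein, stood at 1993, 3422, 3261 and 2794 CPM, and Sostdc1, a secreted BMP and Wnt antagonist, at 1946, 1569, 1039 and 1112 CPM, with no step of either past 2-fold. Of these 6 genes, 1 was higher and 2 lower at day 2 than in sham, and 2 were lower after reversal than in sham. The shares over all tested genes were 4.98% higher and 11.1% lower at day 2, and 5.7% lower after reversal.

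**Figure D2:**
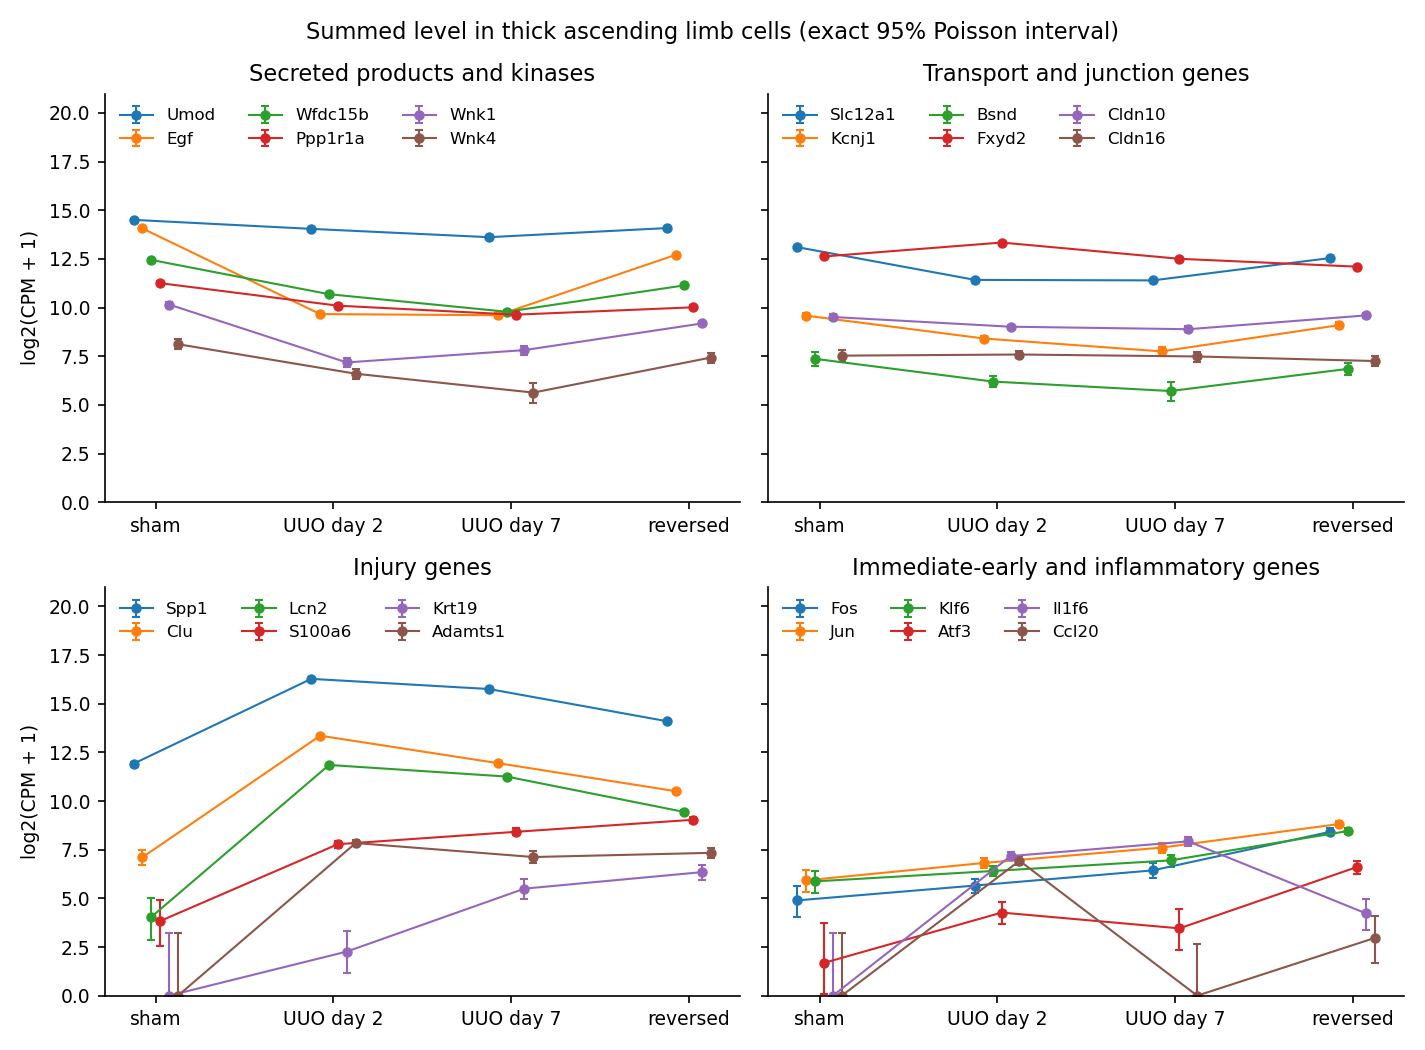
Summed level of selected genes in thick ascending limb cells of each library, as log2(CPM + 1), with exact 95% Poisson intervals, grouped by role; lines only join the values of a gene. Egf fell from 17123 to 811 CPM between sham and day 2 and stood at 6673 CPM after reversal, while Spp1 stood at 3873, 79566, 55410 and 17632 CPM.

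Some salt transport genes were lower at day 2 than in sham, where the list median lay close to that of all genes. Of 11 genes tested between sham and day 2, 4 were lower and none higher, against 11.1% and 4.98% of all genes. The list median was -0.24 against -0.19 over all genes. With TMM factors, 2 were lower and the list median was -0.02. Kcnj1 had 766, 339, 214 and 547 CPM, which put it lower at day 2 (log2 -1.17, -1.38 to -0.97) and higher after reversal than at day 7 (1.35, 1.08 to 1.63). Bsnd (barttin), an accessory subunit of basolateral channels, had 164, 72.4, 51.4 and 115 CPM (-1.17 at day 2, 1.14 after reversal over day 7). Also lower at day 2 was the sodium-proton exchanger Slc9a2, with 81.9, 18.3, 25.7 and 51.8 CPM. Fxyd2, a regulatory subunit of the sodium pump, had 6318, 10380, 5814 and 4394 CPM, with no step past 2-fold. The calls for Kcnj1 and Bsnd lay near the limit: they ended at day 2 on all UMIs and with TMM factors, and from day 7 to reversed at no more than 20% mitochondrial UMIs (0.98 for Kcnj1, 0.75 for Bsnd). Both day 2 calls also ended at 1000 UMIs per cell (-0.91 for Kcnj1, -0.66 for Bsnd). That of Kcnj1 ended at no more than 20% mitochondrial UMIs as well (-0.85). From day 7 to reversed, Bsnd fell short of 2-fold on all UMIs too (0.95). Against sham, 1 of 11 genes was lower after reversal, where 5.7% of all tested genes were. It was the basolateral potassium channel Kcnj10, with 111, 55.6, 34.3 and 40.9 CPM. This call ended at no more than 20% mitochondrial UMIs (-0.83) and at 1000 UMIs per cell (-0.91).

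The main claudins of the segment lay within 2-fold between libraries. Cldn16 stood at 184, 191, 178 and 151 CPM and Cldn19 at 221, 349, 226 and 232 CPM; these 2 claudins form the paracellular path for magnesium and calcium. Cldn10, the claudin of the sodium path, had 731, 517, 473 and 773 CPM. At no more than 20% mitochondrial UMIs, with 16 sham cells, Cldn19 passed 2-fold over sham at day 2 (1.89) and after reversal (1.44), and Cldn10 after reversal (1.13). Of 8 tested genes of this list, 2 were higher than sham at day 2 (Cldn7 and Cldn14) and 2 after reversal (Cldn7 and Cldn3). Among all tested genes, 4.98% and 6.49% were higher in these comparisons. Cldn7 had 59.8, 206, 244 and 232 CPM (log2 1.77 at day 2, 1.94 after reversal over sham), and Cldn3 had 8.86, 44.2, 87.1 and 123 CPM (3.65 after reversal over sham). Cldn8, like both of these a claudin of the more distal tubule, was near equal, at 153, 140.2, 128.5 and 143 CPM. Cldn14, which blocks the Cldn16 path and is induced by calcium sensing, was found in 2 sham cells, 22 day 2 cells, 4 day 7 cells and no reversed cell. Its level of 59.4 CPM at day 2 against 4.43 in sham rested on 2 UMIs in sham (log2 3.48, 1.78 to 5.33). The calcium-sensing receptor Casr had 88.6, 27.4, 42.8 and 53.2 CPM and was lower at day 2 (-1.66, -2.33 to -0.98).

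Hormone and kinase genes of the segment gave 4 lower of 9 tested at day 2 and none higher (list median -0.71). Over all tested genes, 11.1% were lower and 4.98% higher (median -0.19). Wnk1, a kinase upstream of the cotransporter, had 1140, 144, 224 and 581 CPM, a 7.87-fold lower level at day 2 (log2 -2.98, -3.22 to -2.73). Its day 2 and day 7 values were below the 207 and 283 CPM of leukocyte or endothelial barcodes. Wnk4 followed with 277, 96.0, 48.5 and 172 CPM (-1.52 at day 2, 1.80 after reversal over day 7). The prostaglandin E2 receptor Ptger3 had 314, 153, 99.9 and 225 CPM, and Cab39l had 64.2, 28.2, 37.1 and 40.9 CPM. The day 2 calls of this pair ended on all UMIs (-0.77 for Ptger3, -0.90 for Cab39l) and with TMM factors (-0.81 and -0.94), which left 2 of 8 genes lower on all UMIs (list median -0.26) and 2 of 9 with TMM factors (-0.48). That of Cab39l also ended at no more than 20% mitochondrial UMIs (-0.74), and that of Ptger3 at 1000 UMIs per cell (-0.41). Pth1r, the parathyroid hormone receptor, differed in order from these: 689, 857, 778 and 424 CPM, with no step past 2-fold. Reversed members had 3 of 8 genes higher than day 7 members (Wnk1, Wnk4 and Ptger3) and 0 of 9 past 2-fold from sham in either direction (list median -0.54). At no more than 20% mitochondrial UMIs, Wnk1 and Ptger3 lost that call (0.63 and 0.28).

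Transcription factors that mark the distal nephron mostly stayed within 2-fold. Tfap2b stood at 392, 282, 336 and 404 CPM and Irx1 at 128, 121, 70.0 and 123 CPM. The mitochondrial coactivator Ppargc1a had 388, 162, 133 and 269 CPM and its partner Esrrg 70.9, 22.1, 12.9 and 34.1 CPM. They were the 2 of 10 that were lower at day 2, against 11.1% of all tested genes. The Esrrg call ended at 1000 UMIs per cell (-0.67), and that of Ppargc1a on all UMIs (-0.99). From day 7 to reversed, 1 of 10 was higher and 1 lower, against 4.53% and 1.94% of all. The higher one was Ppargc1a (1.01), a call that ended on all UMIs (0.82) and with TMM factors (0.88). It also ended at no more than 20% mitochondrial UMIs (0.66) and at 1000 UMIs per cell (0.67). Esrrg was also the 1 of 10 that was lower after reversal than in sham (-1.03), a call that ended on all UMIs (-0.77) and turned to 0.96 at 1000 UMIs per cell. Pax2, a nephron developmental factor, was higher after reversal than in sham, at 80.5 against 35.4 CPM (log2 1.16, 0.36 to 2.03), which fell short of 2-fold at 1000 UMIs per cell (0.95).

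Nuclear genes of the respiratory chain had ratios below 0 over sham at day 2 and after reversal, most of them within 2-fold. All 20 respiratory chain genes had a ratio below 0 at day 2 (median -0.69, 1 past 2-fold), again from day 2 to day 7 (-0.45, none past 2-fold), and 19 of 20 had a ratio above 0 from day 7 to reversed (0.37, none past 2-fold). Against sham, all 20 were below 0 after reversal (median -0.75, 4 past 2-fold, among them Sdhb with 786 against 371 CPM and Cycs with 1497 against 735 CPM). Over all tested genes, 11.1% were lower than in sham at day 2 (median -0.19) and 5.7% after reversal (median -0.06). On all UMIs none of the 20 passed 2-fold after reversal, and with members limited to 20% mitochondrial UMIs the median from day 7 to reversed was -0.10. The mitochondrially encoded share itself moved in the same order, as given above, and its part was not tested. Citric acid cycle and creatine kinase genes gave 3 of 12 lower at day 2 (Ckb, Idh2 and Ogdh; median -0.75), calls that ended on all UMIs (-0.95, -0.91 and -0.78). Glycolysis genes gave no call in any of the 4 comparisons, with 5 of 13 above 0 at day 2 over sham.

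Injury-associated genes formed the counterpart. At day 2, 13 of 15 tested were higher than in sham and none lower (median 2.13). Spp1, osteopontin, had 3873, 79566, 55410 and 17632 CPM: it was 20.5-fold higher at day 2 (log2 4.36, 4.29 to 4.43) and 4.55-fold higher after reversal than in sham. Leukocyte or endothelial barcodes held 213, 5250, 2674 and 1399 CPM of it. Lcn2, the iron-carrier-binding lipocalin used as an injury marker, had 15.5, 3703, 2450 and 693 CPM and was detected in 4 of 173 sham cells, 188 of 194 day 2 cells, 83 of 86 day 7 cells and 64 of 152 reversed cells. At an equal depth of 1000 UMIs per cell the share of members with an Lcn2 UMI was 0.667%, 85.6%, 75.6% and 26.3%, against 0%, 11.5%, 6.54% and 3.53% of leukocyte or endothelial barcodes, whose levels were 1.38, 164, 127 and 65.5 CPM. It was higher at day 2 than in sham by 7.81 on the log2 scale (6.81 to 9.0) and after reversal by 5.39 (4.39 to 6.59). Clu, clusterin, an extracellular chaperone, had 137, 10509, 3954 and 1456 CPM (6.25 at day 2, 5.89 to 6.63). These 3 were lower after reversal than at day 7 and still above sham.

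Other injury genes had no 2-fold decrease from day 7 to reversed. S100a6, a calcium-binding protein, had 13.3, 219, 341 and 525 CPM, although leukocyte or endothelial barcodes held more of it (1017, 1680, 934 and 800 CPM). Krt19, a keratin of simple epithelia, was at 0 in sham and had 3.81, 44.3 and 80.5 CPM afterwards, at least 12.1-fold higher after reversal than a floor of 3 counts in the sham library allows. Anxa1, a phospholipid-binding protein, was also at 0 in sham and had 22.9, 80.0 and 73.7 CPM, at least 11.1-fold higher after reversal; leukocyte or endothelial barcodes held 128 to 233 CPM. Sox4, a factor of epithelial progenitors, had 109, 180, 366 and 258 CPM. Against sham, 15 of 17 tested injury genes were higher after reversal (median 2.19, which is the same with Krt19 and Anxa1 at their bound), while against day 7 none was higher and 3 were lower (Spp1, Lcn2 and Clu). At no more than 20% mitochondrial UMIs, 3 of 18 were higher and 2 lower than at day 7, and Clu lost its call (-0.99).

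Some signalling genes came from few cells. Among inflammatory genes, 7 of 8 tested were higher at day 2 (median 2.20); of these, Il34 and Cx3cl1 fell short of 2-fold at no more than 20% mitochondrial UMIs (0.86 in place of 1.87, and 0.72 in place of 1.10). The chemokine Ccl20 was at 0 in sham and had 159 UMIs at day 2 in 5 cells, 144 of them in 1 cell. Il1f6 (interleukin 36 alpha), likewise at 0 in sham, had 188 UMIs in 16 day 2 cells and 170 UMIs in 9 day 7 cells, of which 1 cell held 133. The matrix protease Mmp7 had 125 UMIs in 9 day 7 cells, 81 of them in 1 cell, and Sprr1a, a cornified envelope precursor, 207 UMIs in 25 day 2 cells. A single cell held 90.6% of the Ccl20, 78.2% of the day 7 Il1f6 and 64.8% of the day 7 Mmp7 UMIs, and so set the level of the library. Il34, a ligand of the macrophage receptor Csf1r, came from more cells, with 15.5, 59.4, 47.1 and 42.3 CPM in 4.05%, 29.9%, 23.3% and 17.1% of cells, against 1.38 to 4.59 CPM in leukocyte or endothelial barcodes. At 1000 UMIs per cell these shares were 0.667%, 7.73%, 2.33% and 4.61%. Adamts1, a secreted protease, was at 0 in sham and had 229, 138 and 161 CPM, at least 34.4-fold higher at day 2 and at least 24.2-fold higher after reversal. It was found in 42.3%, 39.5% and 25% of cells, and at 1000 UMIs per cell in 12.9%, 12.8% and 13.8%, against 2.23 to 3.36% of leukocyte or endothelial barcodes.

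Growth factor and matrix genes gave 4 higher and 1 lower of 8 tested at day 2, and 7 higher and 1 lower of 10 after reversal against sham. Over all tested genes, 4.98% were higher and 11.1% lower at day 2, and 6.49% and 5.7% after reversal against sham. Hbegf, a ligand of the EGF receptor, had 15.5, 72.4, 134 and 149 CPM, and Pdgfa, a growth factor for mesenchymal cells, 17.7, 54.1, 91.4 and 90 CPM. Neither had a 2-fold decrease from day 7 to reversed. Vegfa, the endothelial growth factor, had 111, 34.3, 25.7 and 53.2 CPM and was the lower gene in both comparisons. Sham held 7 UMIs of Hbegf and 8 of Pdgfa. Of unfolded protein response genes, 2 of 13 were higher at day 2 (against 4.98% of all tested genes) and none after reversal against sham. The 2 were Pdia4 and Dnajb9, whose call ended at no more than 20% mitochondrial UMIs with 0.59 in place of 1.01. Of 2 cell cycle genes tested, Stmn1 was higher at day 2, the 1 tested p53 target gave no call, and no macula densa gene was abundant enough to be tested.

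Antigen presentation and interferon genes differed between libraries that also differed in leukocyte RNA. Cd74, the class II invariant chain, had 106, 323, 1678 and 888 CPM and H2-Ab1, a class II chain, 46.5, 165, 1201 and 535 CPM. Both orders follow the leukocyte genes given above, with the highest value at day 7. Class II genes in members amounted to 0.785 to 1.65% of their level in leukocyte or endothelial barcodes in sham, 2.45 to 3.81% at day 2, 6.01 to 11.1% at day 7 and 4.36 to 6.98% after reversal. Leukocyte marker genes gave 0.851 to 2.85%, 2.34 to 6.87%, 6.96 to 14.9% and 3.73 to 9.13%. Antigen presentation genes gave 5, 7, 0 and 7 higher of 8 in the 4 comparisons, and interferon genes 1 of 3, 4 of 5, 0 of 5 and 2 of 4. From day 7 to reversed, 3 of 8 antigen presentation genes (median -0.88) and 3 of 5 interferon genes (median -1.07) were lower, and neither list had a lower gene in the other comparisons. Class I genes stood higher relative to those barcodes, at 3.82 to 25.4%, 5.80 to 41.0%, 10.7 to 26.6% and 8.80 to 29.8% in the 4 libraries. The part of free RNA in these counts was not tested.

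Immediate-early and heat shock genes were in part higher after reversal than at day 7 and in sham. Of 13 tested, 8 were higher than at day 7 (median 1.36) and 11 higher than in sham (median 2.68), and none was lower. Jun, a subunit of the AP-1 factor, had 59.8, 112, 194 and 452 CPM, and its partner Fos 28.8, 49.5, 85.7 and 342 CPM. Klf6, a zinc finger factor induced by injury, had 57.6, 83.8, 123 and 352 CPM. For Fos, 5 of the 152 reversed cells held 67.7% of the 251 UMIs, and the mean over cells of each cell's CPM gave a log2 ratio of 2.23 over sham in place of 3.53. At 1000 UMIs per cell 6 of the genes could still be tested from day 7 to reversed, with 2 higher and 1 lower. Leukocyte or endothelial barcodes held 771 CPM of Fos, 712 of Jun and 302 of Klf6 after reversal, and tissue digestion precedes the library in all 4 conditions; the part of either was not tested.

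**Figure D3:**
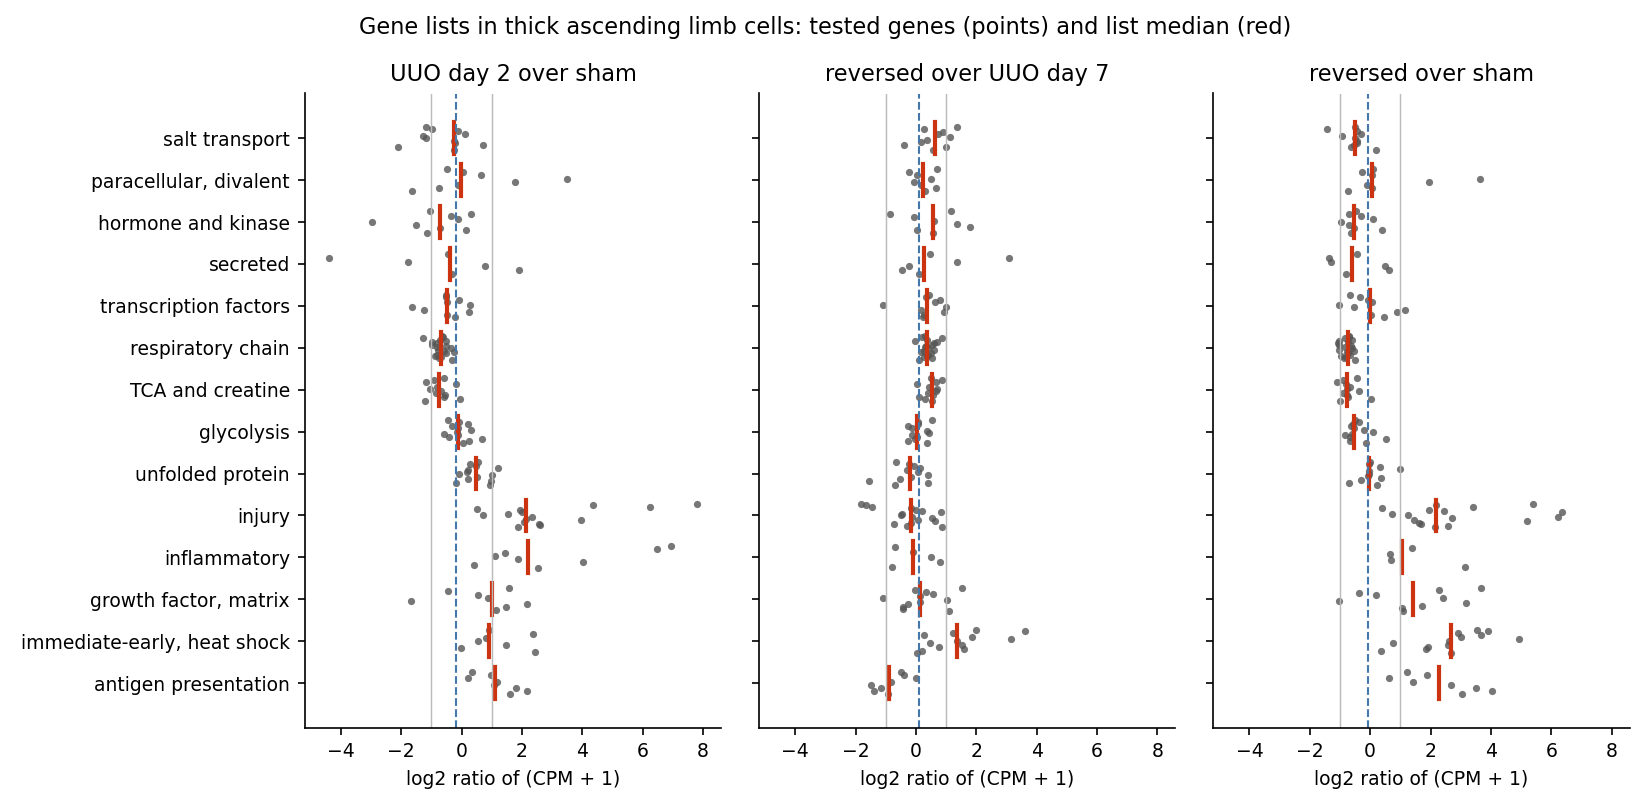
Log2 ratios of (CPM + 1) for the tested genes of each list (points) and their median (red bar) in thick ascending limb cells, for day 2 over sham, reversed over day 7 and reversed over sham. Grey lines mark 2-fold and the dashed line the median of all tested genes. Injury genes had a median of 2.13 at day 2 over sham, and immediate-early genes a median of 2.68 after reversal over sham.

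Beyond the lists, the largest differences in genes at least 2-fold above leukocyte or endothelial barcodes were as follows. Gpx6, a glutathione peroxidase, had 357, 55.6, 34.3 and 141 CPM and was among the 5 largest increases from day 7 to reversed, but not at no more than 20% mitochondrial UMIs (0.00). Atp4a, the alpha subunit of a proton-potassium pump, had 159, 16.8, 24.3 and 39.6 CPM and was among the 5 largest decreases from sham to reversed, with Nccrp1 at 148, 38.1, 12.9 and 28.6 CPM. At day 7 the acute-phase genes Cp (0, 25.9, 88.5 and 28.6 CPM), Lbp (0, 22.1, 62.8 and 6.82 CPM) and Kng1 (4.43, 35.1, 62.8 and 13.6 CPM) were high relative to the other libraries, as was the mucosal chemokine Cxcl17 (0, 35.8, 80.0 and 13.6 CPM). For Cp the direction from day 7 to reversed turned at 1000 UMIs per cell (1.11 in place of -1.59), as did that from day 2 to day 7 (-1.55 in place of 1.73). The Lbp call from day 2 to day 7 ended there (0.93 in place of 1.47). Prr15, with 11.1, 15.2, 85.7 and 77.8 CPM, stayed high after reversal. Ces1f, Inmt, Akr1c21 and Tmem27, genes known from the proximal tubule, also entered by the rule. In sham and reversed, members held at most a few times the level of leukocyte or endothelial barcodes, for example 310 and 116 against 266 and 121 CPM of Akr1c21.

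Cells within a library were then compared at equal depth, by drawing 1000 UMIs outside mitochondrial genes from each member. This kept 150 sham cells, leaving out 23 shallower ones, and all others. Without an Egf UMI were 4.67% of sham members (1.90 to 9.38), 61.9% at day 2 (54.6 to 68.7), 65.1% at day 7 (54.1 to 75.1) and 39.5% after reversal (31.6 to 47.7). Among members with no more than 20% mitochondrial UMIs the shares were 33.3% of 15 sham cells, 73.5% at day 2, 76.5% at day 7 and 74.7% after reversal (63.3 to 84.0), so that the lower share after reversal than at day 7 was not seen there. The cell rule was applied before the draw, to cells of unequal depth. With at least 2 Slc12a1 UMIs the sham share was 15.7% of 172 cells, and with at least 5 the day 2 share was 53.5% of 159. The part of the mitochondrial limit and of the Slc12a1 threshold in these shares was not tested. Before thinning, Egf was found in 97.1%, 74.7%, 62.8% and 75.7% of all members. The share of leukocyte or endothelial cells with an Egf UMI at the same depth, a measure of free RNA, was 7.41% in sham and 3.62% after reversal, where their median depths were 2568 and 4894.5 UMIs.

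The reversed cells were spread over both extremes. At or above 9 UMIs, the lower quartile of sham, lay 77.3% of sham members, 1.03% at day 2, 2.33% at day 7 and 44.1% after reversal. In between lay 18.0%, 37.1%, 32.6% and 16.4%, which after reversal was 25 cells, against 60 without Egf and 67 at or above 9 UMIs. These limits were chosen after the values had been seen, and they divide a range and do not define cell types.

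**Figure D4:**
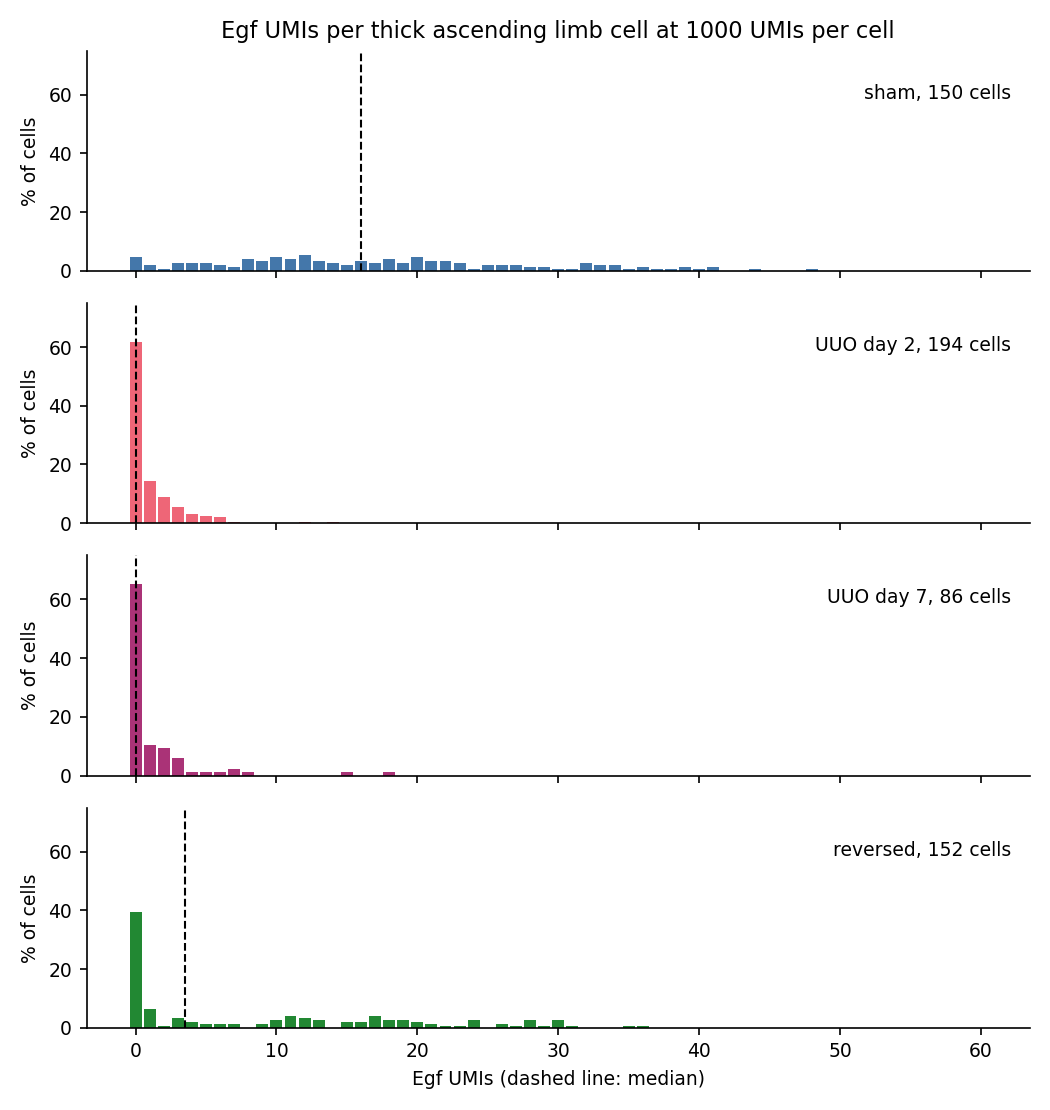
Egf UMIs per thick ascending limb cell at 1000 UMIs per cell, as percent of cells, in each library, with the median as a dashed line. Sham cells had a median of 16 Egf UMIs, day 2 and day 7 cells a median of 0, and reversed cells a median of 3.5 with 39.5% at 0.

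Spp1 ran against Egf from cell to cell in the libraries after obstruction. Spearman's rho between their UMIs at equal depth was -0.07 over 150 sham cells, -0.45 over 194 day 2 cells, -0.34 over 86 day 7 cells and -0.48 over 152 reversed cells. Egf and Umod gave 0.43, 0.39, 0.44 and 0.67. Egf and Slc12a1, a gene of the rule, gave 0.36, 0.51, 0.63 and 0.55. These values describe cells that share a library and a fixed depth, within which a rise of one transcript lowers the room for another.

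**Figure D5:**
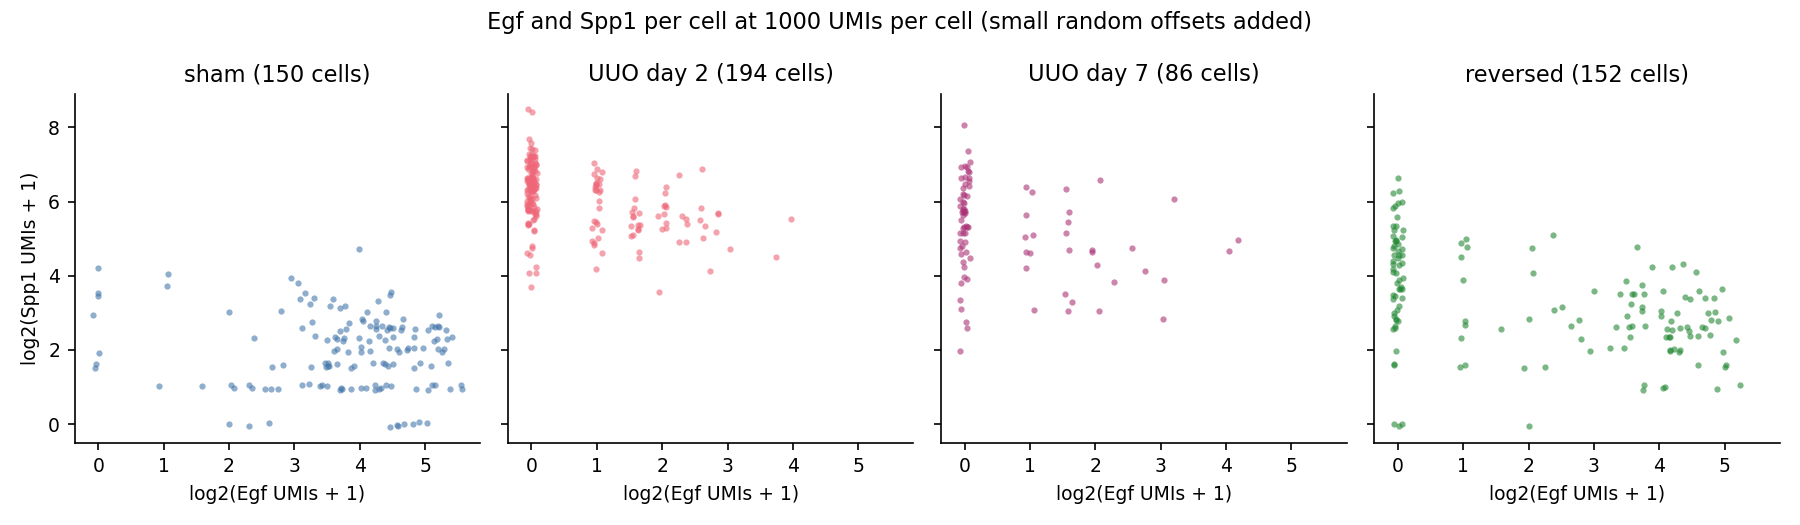
Egf against Spp1 UMIs per cell at 1000 UMIs per cell, both as log2(UMIs + 1) with small random offsets, 1 panel per library. Reversed cells with as much Egf as sham cells had few Spp1 UMIs, while those without Egf ranged from no Spp1 to the highest values of the library (Spearman's rho -0.48).

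Within the reversed library the 60 cells without Egf and the 67 cells at or above 9 UMIs differed in many other genes: of 3469 tested, Egf left out, 367 were higher (10.6%) and 265 lower (7.64%) in cells without Egf. Lcn2 had 1186 CPM without Egf and 52.3 CPM with it (log2 4.48, 3.70 to 5.37), Clu 2494 and 209, Spp1 25667 and 6762, S100a6 906 and 76.4, and Krt19 147 and 8.04, the latter from 2 UMIs (4.03, 2.23 to 6.26). In the other direction Wfdc15b had 379 and 4748 CPM (-3.64, -3.90 to -3.39), Gpx6 13.1 and 318, Wnk1 196 and 1246, Ppp1r1a 390 and 1849, and Umod 8885 and 30485. Injury genes were higher in cells without Egf in 16 of 17 tested (median 2.30) and immediate-early genes in 11 of 13 (median 2.44), with Jun at 715 and 105 CPM. Lower were 16 of 20 respiratory chain genes (median -1.13) and 5 of 10 salt transport genes, while Fxyd2 was higher.

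Some genes of the segment were near equal in both classes of reversed cells. Cldn10 had 712 CPM without Egf and 796 with it, Cldn16 120 and 145, Cldn19 230 and 237, Tfap2b 395 and 406, and Irx1 110 and 117. Other members of the same lists differed. Of 8 tested paracellular genes, 2 were higher without Egf (Cldn3 with 194 and 32.2 CPM, Cldn7 with 332 and 84.4). Casr was the 1 that was lower (31.4 and 72.4 CPM). Of 9 tested genes in the transcription factor list, 2 were higher and 1 lower. The 8 leukocyte genes summed to a median over cells of 774 CPM without Egf and 832 CPM with it, and Lyz2, a macrophage lysozyme, had 414 and 462 CPM. Cd52, a leukocyte surface protein, went the other way, with 102 and 44.2 CPM (log2 1.19, 0.21 to 2.27). Some interferon and class I genes differed between the same cells, with Ly6e at 958 and 169 CPM and B2m at 508 and 217 CPM. The summed proximal tubule genes had medians of 2675 and 3136 CPM. The mitochondrial share was not equal: it was 11.5% of UMIs in cells without Egf, 20.5% in between and 33.2% at or above 9 UMIs. At day 2 it was 18.1%, 27.1% and 45.7%, at day 7 7.93%, 15.1% and 31.0%, each with 2 cells at or above 9 UMIs, and in sham 21.7%, 36.0% and 34.6%. The 2 classes were therefore compared within a range of mitochondrial share, a choice made after the values were seen. At no more than 20% mitochondrial UMIs, 54 cells without Egf and 10 with it remained, whose mitochondrial shares still differed (8.99% and 14.8%). Spp1 had 26212 and 6157 CPM in them (log2 2.09, 1.91 to 2.28), Clu 2559 and 202, Umod 8936 and 21601, and Wfdc15b 289 and 2195 (-2.92, -3.35 to -2.49). Above 20%, 6 cells without Egf and 57 with it had near equal mitochondrial shares of 35.7% and 35.9%. There Spp1 had 18108 and 6877 CPM (1.40, 1.24 to 1.55), Clu 1597 and 210.4, Umod 8178 and 32168, and Wfdc15b 1636 and 5232 (-1.68, -2.16 to -1.23). These 4 genes thus differed in the same direction within both ranges, while the Lcn2 interval above 20% spanned 0 (1.42, -1.05 to 3.39) on 3 and 9 UMIs, as did that of Jun (1.09, -0.67 to 2.55).

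Each class was set beside the nearest class of another library. Reversed cells at or above 9 Egf UMIs differed from the 116 such sham cells in 65 higher genes (2.06%) and 106 lower genes (3.36%) of 3158. None of the tested salt transport (11), paracellular (7), hormone and kinase (9), secreted (5) or respiratory chain (20) genes passed 2-fold. Kcnj1 had 848 and 813 CPM, Wnk4 310 and 308, and Gpx6 318 and 348 in reversed and sham. Of 10 injury genes 3 were higher (Clu 209 and 93.7 CPM, Tmsb10 314 and 133, Anxa2 117 and 42.3), and Spp1 had 6762 and 3510 CPM (log2 0.95, 0.84 to 1.05). Of 5 immediate-early and heat shock genes 3 were higher too (median 1.05): Junb with 121 and 30.2 CPM, Fos with 80.4 and 33.3, and Ier3 with 145 and 69.5. Of 7 antigen presentation genes 5 and the leukocyte genes Lyz2 (462 and 21.2 CPM) and C1qa (129 and 6.05 CPM, the latter from 2 UMIs, log2 4.20, 2.38 to 6.30) were also higher, and among the lower genes were proximal tubule genes such as Gpx3 (1765 and 5312 CPM).

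Reversed cells without Egf differed from the 56 day 7 cells without Egf in 226 higher genes (6.32%) and 98 lower genes (2.74%) of 3575. Spp1 had 25667 CPM after reversal and 63279 at day 7 (log2 -1.30, -1.33 to -1.27) and Lcn2 1186 and 2923. Il1f6, Mmp7, Lbp, Cxcl17 and Kng1 were lower too. Of 13 immediate-early and heat shock genes 8 were higher (median 1.81), with Klf6 at 537 and 131 CPM and Atf3 at 123 and 9.96 CPM. Atf3 rested on few counts: all day 7 members together held 7 UMIs. Among all reversed members, 5 cells held 54 of its 71 UMIs. S100a6, with 906 and 381 CPM, and Krt19, with 147 and 49.8 CPM, were among 4 injury genes that were higher. Transport genes gave 1 higher of 8, Bsnd with 73.3 and 29.9 CPM, and no respiratory chain gene of 20 passed 2-fold.

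Distal convoluted tubule barcodes, the next segment, offered a comparison of the same genes in the same libraries. Egf in these 238 cells had 3271, 39.0, 32.8 and 1545 CPM, the same order of libraries as in the thick limb at a lower level. Wnk1 had 4246, 667, 1970 and 2853 CPM there, with a day 7 level closer to that of sham than in the thick limb. Defb1 had 5688, 843, 757 and 2728 CPM, lowest during obstruction, where the thick limb had its highest values. Kng1 stayed at 0 to 8.52 CPM and Cldn16 at 0 to 4.38 CPM in the distal convoluted cells. These differences between segments were not tested, as each rests on 1 library per condition and on 39 to 83 distal convoluted cells.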

How the data were processed

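For 4 droplet libraries the files deposited by the authors hold UMI counts, not normalized (10x 3' v2 chemistry, 3 pooled mice each, per the labels). Cell Ranger, STAR and the builds GRCm38 and mm10 are named without role or version, per the submitters' processing notes. The other sample, of plate wells, was not used. Kept barcodes had 200 or more genes and a mitochondrial share of 50% or less. The cell rule was applied to raw UMIs, and members' UMIs were summed per library. CPM used UMIs outside mitochondrial genes, of which the 4 sums held 451603, 1312230, 700380 and 733056. Ratios used a pseudocount of 1 CPM and exact conditional binomial intervals; levels have exact Poisson and shares exact Clopper-Pearson intervals, covering counting error only. A level of 0 was set to a floor of 3 counts per library for a bound.

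Leukocyte or endothelial barcodes had at least 2 Ptprc or Egfl7 UMIs and at most 1 of Slc12a1. The text names genes from 18 lists, the 5 largest differences per direction among genes at least 2-fold above those barcodes, and 15 genes highest in members over other cells. Members, lists and rules were chosen with earlier results of these data known; the Egf classes and the alternatives for them were added after the values were seen. No doublet caller was part of the rule, and leaving out the highest Scrublet scores (scanpy 1.11.5) was an alternative, as were other gates, scalings (TMM in edgeR 4.0.16), pseudocounts and filters. The ratio script was tested on simulated counts. Scripts ran in Python 3.11.15 (scipy 1.17.1, numpy 2.4.6, pandas 2.3.3). Some genes of the lists are not reported here.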

Additional observations from a re-analysis of the deposited data

How the results depend on the processing

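Of 156 values recomputed for the shares and counts, 112 stayed within their interval or within 1.5 times, and 44 moved; of the named genes' ratios, 6565 stayed, 1294 moved and 6 past 2-fold changed sign (smaller ones that did so, such as Umod, count as stayed or moved). At most 20% mitochondrial UMIs gave shares of 2.47% (sham), 5.48% (day 2) and 3.62% (reversed), 434 higher genes at day 2 and 480 after reversal over sham, and Egf-less shares of 33.3%, 73.5%, 76.5% and 74.7%. It reversed Krt18 at day 2 over sham (-0.22) and Wfdc15b at reversed over day 7 (-0.22). At least 2 Slc12a1 UMIs gave a sham share of 5.14%, an Egf-less sham share of 15.7% and Cp at 0.16 for reversed over day 7; at least 5 gave a day 2 share of 7.20% and an Egf-less day 2 share of 53.5%. Thinned cells gave shares of 7.67% (sham), 2.77% (day 7) and 7.14% (reversed), 100 higher and 159 lower genes at day 2 over sham, 57 higher at day 7 over day 2, 67 higher and 36 lower at reversed over day 7, and 91 and 123 at reversed over sham. They reversed Cp (-1.55 at day 7 over day 2, 1.11 at reversed over day 7) and Esrrg (0.96 at reversed over sham). Drawing 500 UMIs gave Egf-less shares of 70.6% at day 2 and 75.6% at day 7. CPM of all UMIs gave 155 lower at day 2 over sham, 172 higher and 28 lower at day 7 over day 2, 65 higher at reversed over day 7 and 65 lower at reversed over sham. TMM factors gave 289 and 249 at day 2 over sham, 105 lower at day 7 over day 2 and 104 higher at reversed over day 7. A pseudocount of 10 CPM gave 40 lower at day 7 over day 2, and the mean over cells 177 higher there. Without a filter on low counts, 1903 and 2169, 2125 and 1170, 2539 and 1588, and 3332 and 1591 genes were higher and lower in the 4 comparisons. Of the named calls from day 7 to reversed, 14 of 43 ended at the 20% mitochondrial limit, against 14 of 76 at day 2 over sham. Egf stayed more than 2-fold lower at day 2 than in sham in every setting in which it was recomputed, whereas after reversal over sham it lost that call at 1000 UMIs per cell (-0.97) and in the mean over cells (-0.92). Apart from the settings' own construction (fewer cells, fewer genes, another total), the cause was not tested. No paired analysis was possible because each condition is 1 library. Depth limits genes under about 50 CPM, which were mostly left untested.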

Other observations

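The few sham members without Egf carried genes of the macula densa, the patch of cells at the end of the thick limb that senses tubular salt. Of these 7 cells, 6 had UMIs of at least 2 of Nos1, Pappa2 and Robo2, genes known from the macula densa, and their Umod counts were 1, 1, 1, 2, 5 and 8 UMIs against a median of 48 in all sham members. Only 1 of the 27 sham cells with intermediate Egf and none of the 116 with high Egf met the same criterion. After reversal 3 of the 60 cells without Egf met it, with 0, 0 and 5 Umod UMIs, at day 2 1 of 120 and at day 7 1 of 56. The 3 genes were looked at in the Egf classes after the values were seen.

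Cldn10 and Cldn16, claudins that are known to occupy separate junctions of the segment, were found together in 23 sham cells where the product of their shares gives 31.2. The counts were 48 against 60.6 at day 2, 27 against 31.3 at day 7 and 44 against 42.8 after reversal. Cldn10 and Cldn19 gave 40 against 40.9 in sham and 96 against 89.1 at day 2. At day 7 and after reversal that pair gave 47 against 42.8 and 60 against 58.0. Cldn16 and Cldn19 gave 27 against 25.5 in sham and 82 against 82.0 at day 2. Their later counts were 41 against 38.2 at day 7 and 37 against 34.3 after reversal. With 1 library each these counts were not tested.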
